A study of Mus musculus with 9 samples.

Results

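The DNA replication machinery examined here is a group of 44 genes for the proteins that load, start and drive the replication fork and for the enzymes that make its deoxynucleotides. The genes were listed by name and not by a cut on their values, but earlier results of these data were known. All 44 were found among the 19769 genes of the RNA-seq table, and all 44 were among the 11870 genes that were tested, those whose mean over the 4 libraries reached 0.1. The cells sequenced for RNA were primary mouse embryonic fibroblasts (MEFs) from Myc-Egfp+/+ mice, in which GFP is joined to the MYC protein, so that both groups carried the same allele. The chromatin reads described near the end belong to other samples, from wild-type MEFs and from Fubp1-knockout MEFs with Fubp2 knocked down by siRNA. The cells for RNA were given 20 µM MG-132, which blocks the proteasome and so slows the loss of MYC, for 6 h. Cells with little or much GFP were then sorted as low-MYC and high-MYC cells and left overnight after seeding, and each group gave 2 technical replicates. The spread between replicates is therefore technical, and every p-value below compares these 4 libraries, not independent cultures or embryos.

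Replication starts at origins, which are bound by the origin recognition complex (ORC). CDC6 and CDT1 then help ORC to load the ring of MCM proteins, the core of the replicative helicase, and CDC45 and the GINS complex join that ring to make it an active helicase. Primase and DNA polymerases copy the opened strands, with a sliding clamp, its loader, single-strand binding proteins and the enzymes that join Okazaki fragments, while ribonucleotide reductase and its partner enzymes supply the building blocks. Many of these genes are transcribed mainly as cells enter S phase, and E2F factors are well known regulators of them.

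The values were fragments per kilobase of transcript (FPK) divided by a score from ERCC RNAs, synthetic transcripts that had been added by cell count. They are per length and per cell, and are called normalized FPK. The 4 libraries summed to 46321 and 48291 normalized FPK in low-MYC cells and 102853 and 109090 in high-MYC cells, so the median log2 fold change of all genes tested was 1.03 (5th to 95th percentile 0.59 to 1.35). The second scale used here, the share, is a gene's normalized FPK in parts per 1000000 of its library's total (ppm). The spike-in score cancels in it, and its median log2 fold change over all genes tested was 0.01 (-0.23 to 0.36). The 2 scales answer different questions, RNA per cell and part of the mRNA pool, and the spike-in score was the only link between them. Read counts were not used here. The size of the steps between low values gave estimates of 20100000 to 22400000 reads a library, but only 42.1 to 45.3% of low values lay within 0.1 of a whole number of reads (20% if spread evenly), so these remain estimates.

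Windows of 30 bases with an E2F-type sequence, from the promoters of 7 members, are shown first. Such a sequence stood in 24 of the 37 members with a promoter given, although no member was chosen for it. The letters CCAAT stood in 23 of the 37. Only members with an E2F-type match are shown. The first 4 belong to the members with the largest share difference in their role, and the last 3 to the members with the smallest in theirs. All are from RefSeq on GRCm38.p6, are written 5′ to 3′ on the gene's strand and end before or near the start site. The matched letters are in capitals.
Rrm2, chr12:24708008-24708037, plus strand: caccaacctcaGCGGCAAcgcccgcccggc
Cdc6, chr11:98908002-98908031, plus strand: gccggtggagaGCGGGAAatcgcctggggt
Mcm5, chr8:75109346-75109375, plus strand: cgccaagaactTTCGCGCcaaaacgtccag
Rpa2, chr4:132768312-132768341, plus strand: gctgtcccttcGCGGGAAggagtttgtggc
Rrm1, chr7:102441617-102441646, plus strand: aggagaactcgTTCCCGCcaggtccgcttt
Rpa3, chr6:8259152-8259181, minus strand: atctgcccgggTTGGCGCggccgcccgctg
Prim1, chr10:128015189-128015218, plus strand: ggcctgtcttgTTCCCGCcaattctcgtgt

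RefSeq promoters, 250 bases before to 50 after a start, were given for 37 of the 44 members, 45 promoters in all. The E2F-type runs searched, on both strands and with overlaps allowed, were TTCCCGC along with its variant TTGGCGC along with its variant TTCGCGC along with its variant TTGCCGC. At least one of them stood in 57.8% of the members' promoters. The share was 17.2% over the promoters of the genes tested and 9.57% over all promoters in the table. A CCAAT box (CCAAT) stood in 55.6% of the members' promoters against 38.4% and 37.4%. The E-box CACGTG, the core sequence that MYC and MAX bind, stood in 15.6% against 10.3% and 7.15%, which is 7 member genes: Fen1, Lig1, Orc4, Pola2, Rfc1, Rpa1 and Tyms. A CHR element (TTTGAA, or with one letter changed, TTCGAA), known from genes of late cell cycle stages, stood in 15.6% against 13.7% and 19.2%. The 24 members with an E2F-type match had a median log2 fold change in share of 0.14 (range -0.03 to 0.32), and the 13 without one had 0.13 (-0.09 to 0.30). The medians with and without the letters were close. Rrm2, with the largest share difference, held them, while Tk1, the next largest, did not in its RefSeq promoters. Orc2, with the lowest, did not either, while Orc4, the next lowest, did.

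All 44 genes rose per cell. With limma on log2(normalized FPK + 0.1) and Benjamini-Hochberg adjustment, every member was higher in high-MYC cells at an adjusted p under 0.01, as were 97.1% of all genes tested, and 0 members were lower (0.0253% of all genes). On the same fitted scale 36 members were at least 2-fold higher, against 55.1% of all genes. The members' median log2 fold change was 1.17, from 0.66 for Prim2 to 1.48 for Rrm2, and 35 of the 44 lay above the median of all genes. As plain ratios of group means, without a pseudocount, the members ranged from 2.10 (Orc2) to 2.80 (Gins1 and Rrm2), with a median of 2.50 against 2.26 for all genes. The pseudocount lowers the fitted fold of weakly expressed members, and 3 of them, Gins1, Pola1 and Prim2, had low-MYC means under 0.1. These 3 reached the filter only through the high-MYC libraries, so their tests are no support for a rise. The counts of members here and below include them.

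As shares of the library, the shift was small and no single gene passed the test. By limma with Benjamini-Hochberg adjustment, 0 members were higher and 0 lower at an adjusted p under 0.01, where 1.78% and 0.531% of all genes were. At an unadjusted p under 0.05, 26 members (59.1%) were higher and 0 lower, against 18.7% and 12.9% of all genes. The change was positive in 40 members and 53% of all genes, with a median of 0.14. In 33 members (75%) both high-MYC libraries lay above both low-MYC libraries, against 33.9% of all genes. The reverse held for 1 member, Orc2, against 28.4% of all genes, and 10 members overlapped. Together the 44 genes made up 0.179% and 0.173% of the low-MYC totals and 0.2% and 0.199% of the high-MYC totals, a ratio of 1.13. Pcna and Rrm2 held a large part of these sums, and without them the ratio was 1.10. With the libraries rescaled to the same median instead, 0 members passed as higher at an adjusted p under 0.01 by limma, against 1.76% of all genes. At the looser adjusted p under 0.05 by the same limma test, 7 members were higher (Rrm2, Cdc6, Pcna, Lig1, Rfc3, Rfc2 and Mcm4), as were 7.77% of all genes. With any 1 of the 4 libraries left out, none of these 7 passed that looser threshold (limma, adjusted p from 0.0532 to 0.223), although their log2 differences stayed between 0.16 and 0.35. In those fits 1 group has a single library, which is assumed to vary like the pair of the other group.

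**Figure D1:**
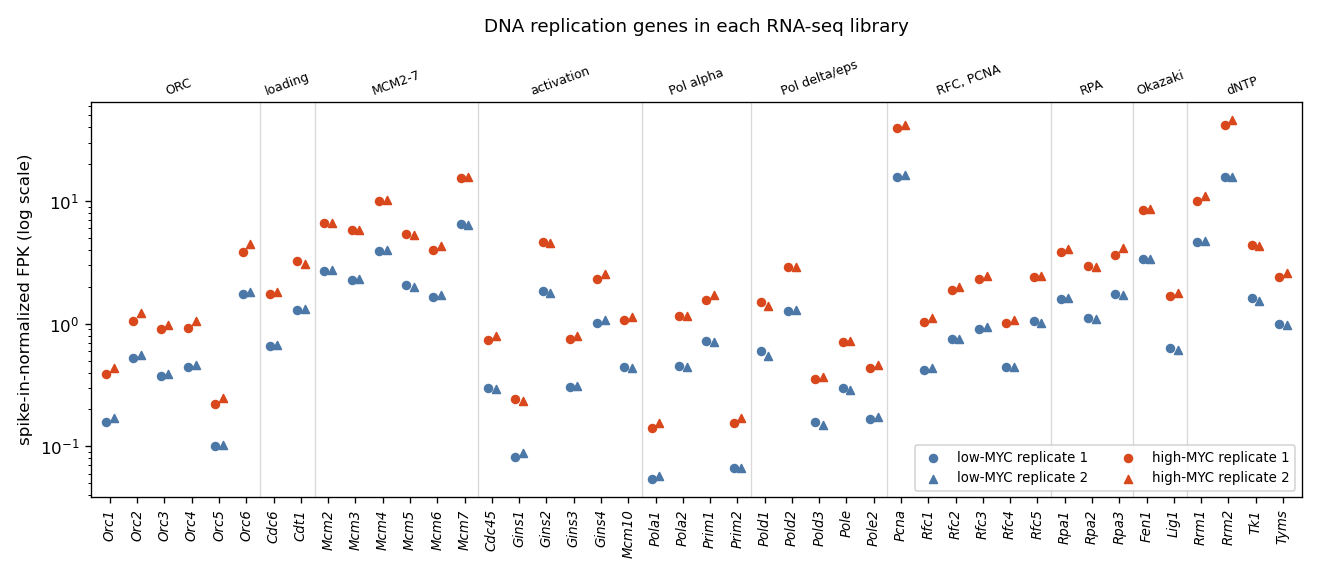
Normalized FPK (log axis) of the 44 replication genes in each library, grouped by role; blue is low-MYC, orange high-MYC, and circles and triangles are replicates 1 and 2. In every gene both orange points lie above both blue points, and Pcna and Rrm2 stand at the top.

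The 6 genes of ORC, which marks origins, had the lowest ratio of summed shares among the roles, 1.03. Orc2 (chr1:58462771-58505109) read 0.524 and 0.559 normalized FPK in low-MYC cells and 1.05 and 1.22 in high-MYC cells. Its share was 11.3 and 11.6 ppm in low-MYC cells and 10.2 and 11.2 in high-MYC cells. Orc2 thus was higher per cell in both high-MYC libraries, by the smallest ratio of the group (2.10), while its share lay below the low-MYC libraries in both, with a log2 difference of -0.09 (95% interval -0.23 to 0.06). Orc4 had a share difference of -0.03 (-0.14 to 0.08), with overlapping libraries. Orc3 had the largest one of the complex, 0.12 (0.04 to 0.21), on shares of 8.08 and 8.07 against 8.83 and 8.96 ppm. Orc1, the ORC subunit whose level is best known to vary with the cell cycle, stood at 0.12 (0.01 to 0.24). In every library the order of levels was Orc6, Orc2, Orc4, Orc3, Orc1 and Orc5, and the highest subunit was 17.3 to 18 times the lowest.

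Cdc6, the ATPase that joins ORC at the origin, was among the members with the larger share differences. Cdc6 (chr11:98907801-98923940) had shares of 14.3 and 13.8 ppm in low-MYC cells and 17.0 and 16.5 in high-MYC cells. The groups were clearly apart, and the log2 difference was 0.24 ± 0.04 (SE; limma, Benjamini-Hochberg adjusted p = 0.0299). Cdt1, which brings the MCM ring and is destroyed once S phase begins, had shares of 27.8 and 27.4 against 31.7 and 28.0 ppm. Its difference of 0.11 had an interval from -0.07 to 0.29, and its high-MYC libraries lay far apart.

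The 6 MCM2-7 genes, the helicase ring, all had higher shares in both high-MYC libraries, against 33.9% of all genes tested, and 5 of the 6 passed an unadjusted p of 0.05 as higher, against 18.7%. Mcm5 (chr8:75109569-75128439) read 2.06 and 2.01 normalized FPK in low-MYC cells and 5.40 and 5.33 in high-MYC cells. As a share this was 44.5 and 41.6 against 52.5 and 48.9 ppm, a log2 difference of 0.23 (0.08 to 0.38), the highest of the ring. Mcm7, the most abundant subunit, had the smallest, 0.12 (-0.02 to 0.25), on 141 and 131 against 151 and 144 ppm. Mcm4 stood at 0.18 ± 0.03 (SE; limma, Benjamini-Hochberg adjusted p = 0.0491). The order Mcm7, Mcm4, Mcm2, Mcm3, Mcm5, Mcm6 was the same in all 4 libraries, and Mcm7 was 3.65 to 3.94 times Mcm6, although the proteins form a ring with one copy of each.

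The activation factors also had higher shares in both high-MYC libraries in all 6 genes (33.9% of all genes tested). CDC45 and GINS complete the active helicase, and MCM10 helps it to start. Gins1 (chr2:150905400-150931280) read 0.0817 and 0.0889 normalized FPK in low-MYC cells and 0.242 and 0.236 in high-MYC cells, which with Rrm2 is the largest ratio of means of the group (2.80). That ratio rests on an estimated 20 to 27 reads a library, the fewest of any member, and Gins1 reached the filter only through the high-MYC libraries. Its share difference was 0.22 (0.07 to 0.37). Gins4, at the other end, had shares of 22.1 and 22.1 against 22.4 and 23.5 ppm, a difference of 0.05 (-0.04 to 0.15). Cdc45 stood at 0.18 (0.07 to 0.29) and Mcm10 at 0.15 (0.03 to 0.26). Gins2 was 19.1 to 22.8 times Gins1, the widest span within a complex here, even though GINS contains one of each subunit.

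**Figure D2:**
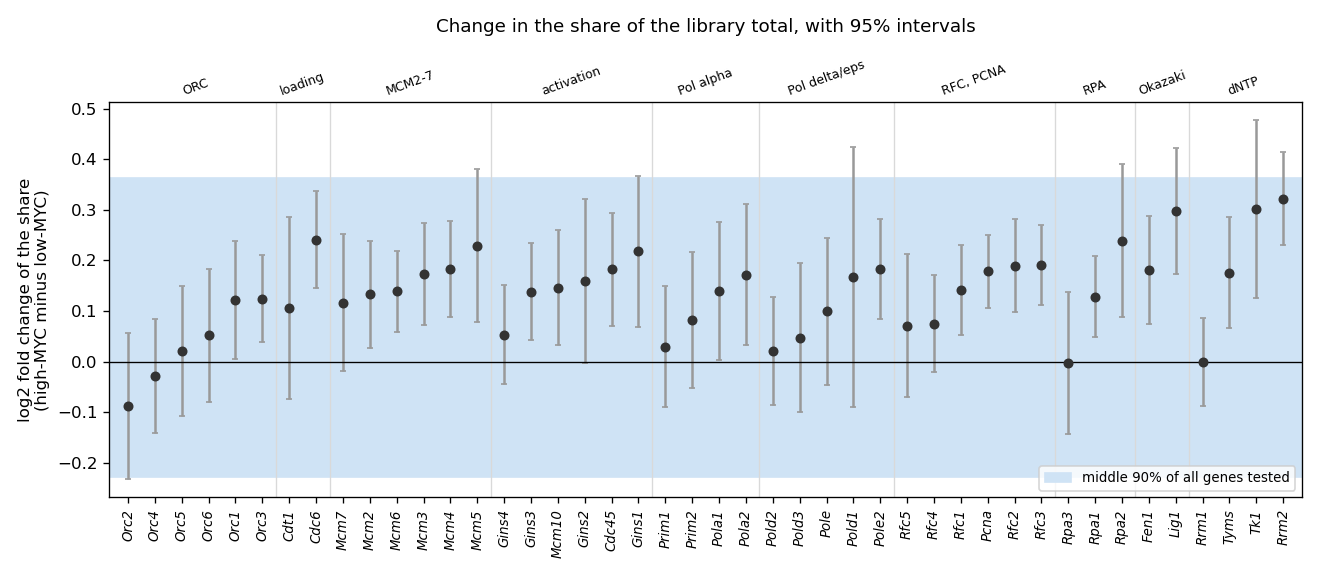
Log2 fold change of each gene's share of the library total, high-MYC minus low-MYC, with 95% limma intervals; genes are grouped by role and ordered within it, and the blue band holds the middle 90% of all genes tested (-0.23 to 0.36). Every point estimate lies inside the band, 40 are above 0, and the ORC genes Orc2 and Orc4 are lowest.

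Polymerase alpha-primase, which lays down the starting primers, had share differences from 0.03 to 0.17. Pola2, the accessory subunit, had shares of 9.84 and 9.24 ppm in low-MYC cells and 11.2 and 10.5 in high-MYC cells. This gave 0.17 (0.03 to 0.31), and catalytic Pola1 gave 0.14 (0.00 to 0.28). Prim1, the catalytic primase, had 15.5 and 14.6 against 15.1 and 15.7 ppm, so its libraries overlapped, and the difference was 0.03 (-0.09 to 0.15). The interval of Prim2 also spanned 0, at 0.08 (-0.05 to 0.22). Like Gins1, both Pola1 and Prim2 reached the filter only through the high-MYC libraries, which limits what their intervals show. The subunits were not tested against each other.

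Polymerases epsilon and delta, which extend the leading and lagging strands, had a ratio of summed shares of 1.06. Pole2, a subunit of polymerase epsilon, stood highest at 0.18 (0.08 to 0.28), with shares of 3.62 and 3.60 ppm in low-MYC cells and 4.25 and 4.21 in high-MYC cells. Its catalytic partner Pole had 0.10 (-0.05 to 0.24). In polymerase delta, Pold2 had shares of 27.4 and 26.7 against 28.1 and 26.7 ppm, which overlap, and a difference of 0.02 (-0.09 to 0.13). Pold1, the catalytic subunit, had 0.17 with the widest interval among these genes (-0.09 to 0.42), and replicate 1 exceeded replicate 2 in both groups. Pold2 was 7.96 to 8.56 times Pold3.

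Pcna, the sliding clamp that holds the polymerases on DNA, was one of the 2 most abundant members. Pcna (chr2:132249162-132253314) read 15.7 and 16.3 normalized FPK in low-MYC cells and 39.2 and 41.9 in high-MYC cells. The shares were 338 and 337 against 381 and 384 ppm, so that the groups were far apart and the replicates close. The difference was 0.18 ± 0.03 (SE; limma, Benjamini-Hochberg adjusted p = 0.0307). Among the loader subunits, Rfc3 gave 0.19 ± 0.03 (SE; adjusted p = 0.0330 by the same limma fit), on 19.6 and 19.4 against 22.6 and 22.3 ppm. Rfc2 gave 0.19 as well, with an adjusted p of 0.0442 by limma. Rfc5 was lowest at 0.07 (-0.07 to 0.21), on 22.7 and 20.9 against 23.4 and 22.4 ppm, which overlap. The 5 RFC genes lay close in level, the highest 2.27 to 2.49 times the lowest.

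The 3 genes of RPA, the trimer that coats single-stranded DNA, had share differences from -0.00 to 0.24. Rpa2 (chr4:132768332-132778752) had shares of 24.1 and 22.7 ppm in low-MYC cells and 28.9 and 26.7 in high-MYC cells, a difference of 0.24 (0.09 to 0.39). Rpa1, the large subunit, had 0.13 (0.05 to 0.21). Rpa3 had 37.8 and 35.5 against 35.4 and 37.8 ppm, which overlap fully, and a difference of -0.00 (-0.14 to 0.14). The subunits lay closer together in high-MYC cells: highest over lowest was 1.57 in both low-MYC libraries and 1.30 and 1.42 in the high-MYC libraries. Rpa3 was the highest subunit in 3 libraries and Rpa1 in high-MYC replicate 1, at 3.86 against 3.64 normalized FPK.

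The enzymes at the end of Okazaki fragment synthesis both had higher shares in high-MYC cells. Lig1 (chr7:13277283-13311433), the ligase that seals the fragments, had 13.7 and 12.7 ppm in low-MYC cells and 16.5 and 16.4 in high-MYC cells. Its difference was 0.30 ± 0.05 (SE; limma, Benjamini-Hochberg adjusted p = 0.0328). Fen1, the flap nuclease that trims their ends, had 73.1 and 69.4 against 81.9 and 79.9 ppm, a difference of 0.18 (0.08 to 0.29). In Lig1 and Fen1 the groups did not overlap, with both high-MYC libraries above both low-MYC libraries, as in 33.9% of all genes tested.

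The deoxynucleotide enzymes held both the largest share difference of the group and one of the smallest. Rrm2 (chr12:24708241-24714146), the small subunit of ribonucleotide reductase and the one whose level limits the enzyme in S phase, read 15.6 and 15.8 normalized FPK in low-MYC cells and 42.1 and 45.9 in high-MYC cells. Its share was 338 and 327 against 410 and 421 ppm, and the difference was 0.32 ± 0.03 (SE; limma, Benjamini-Hochberg adjusted p = 0.0146). Rrm1 (chr7:102441695-102469771), the large subunit, is a longer-lived protein. It read 4.64 and 4.73 normalized FPK in low-MYC cells and 10.0 and 10.9 in high-MYC cells. As a share Rrm1 stayed at 100.2 and 97.9 against 97.7 and 100.3 ppm, a difference of -0.00 with an interval from -0.09 to 0.09.

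The ratio of Rrm2 to Rrm1 within a library needs neither the spike-in score nor the total. It was 3.37 and 3.34 in low-MYC cells and 4.20 in both high-MYC libraries, a log2 difference of 0.32. With 2 libraries a group, a two-sided exact permutation test cannot go below p = 0.333, the value it gave, and this pair was picked after its values were seen. Tk1, thymidine kinase, had shares of 34.9 and 31.7 against 42.7 and 39.8 ppm, a difference of 0.30 (0.13 to 0.48). Tyms, thymidylate synthase, had 0.18 (0.07 to 0.29). The 4 nucleotide genes together had the highest ratio of summed shares among the roles, 1.19, against 1.03 to 1.15 for the other roles.

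Only Pcna, Rrm2 and Mcm7 were among the 1000 highest genes in either group, compared per length. Pcna ranked 374 by its low-MYC mean and 334 by its high-MYC mean, and Rrm2 ranked 379 and 318. The median rank of the 44 members was 4681 and 4331 of 19769. The lowest member, Pola1, the catalytic subunit of polymerase alpha, read 0.0537 and 0.0570 against 0.141 and 0.154 normalized FPK.

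Genes that work with the fork were counted in the same way, beside 18.7% of all genes tested that were higher and 12.9% that were lower in share at an unadjusted p under 0.05. At an adjusted p under 0.01 by limma, 97.1% of all genes tested rose per cell, and 1.78% were higher and 0.531% lower in share. Of 24 genes listed as replication regulators, 23 were tested and 23 rose per cell. Among them were firing kinases, fork protection and minor clamp loader genes, but also the polymerase subunits Pold4, Pole3 and Pole4. On the share scale 0 of the 23 passed at an adjusted p under 0.01 by limma, with 13 higher and 0 lower at an unadjusted p under 0.05. Their median share difference was 0.16, from -0.01 for Mtbp to 0.35 for Timeless, a fork protection gene. Of 14 genes for fork-linked chromatin factors and nucleases, 13 were tested and rose per cell, again with 0 passing on the share scale by limma and 9 higher at an unadjusted p under 0.05. Their median was 0.14, from Top1 (-0.03) to Uhrf1 (0.24), which helps to copy DNA methylation. The 12 other genes of nucleotide supply had a median of 0.07, and none passed on the share scale by limma, with 3 higher and 2 lower at an unadjusted p under 0.05. They ran from Samhd1 (-0.16; 27.3 and 26.6 against 23.5 and 24.4 ppm), which breaks deoxynucleotides down, to Dtymk (0.25; 23.8 and 23.5 against 28.2 and 28.4), which makes dTDP. Of 10 E2F and partner genes, 9 were tested, with a median of 0.03, from E2f3 (-0.04) to Tfdp1 (0.20), and 0 passed by limma (2 higher and 0 lower at an unadjusted p under 0.05). In these lists Dscc1, Dna2 and Tfdp2 had low-MYC means under 0.1 and so reached the filter only through the high-MYC libraries.

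Cell cycle genes outside replication had share differences of similar or larger size. All 30 mitotic genes were positive in share (53% of all genes tested), 28 of them at an unadjusted p under 0.05 (18.7%) and 0 at an adjusted p under 0.01 by limma. Their median was 0.21, from Tpx2 (0.07) to Nusap1 (0.34). The 8 G1 cyclins and kinases with Mki67 had a median of 0.20 with 9 of 9 positive, and Ccnd1, cyclin D1, passed at 0.40 (limma, Benjamini-Hochberg adjusted p = 0.00652), while Cdk6 was lowest at 0.02. The replication genes were not tested against these lists.

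**Figure D3:**
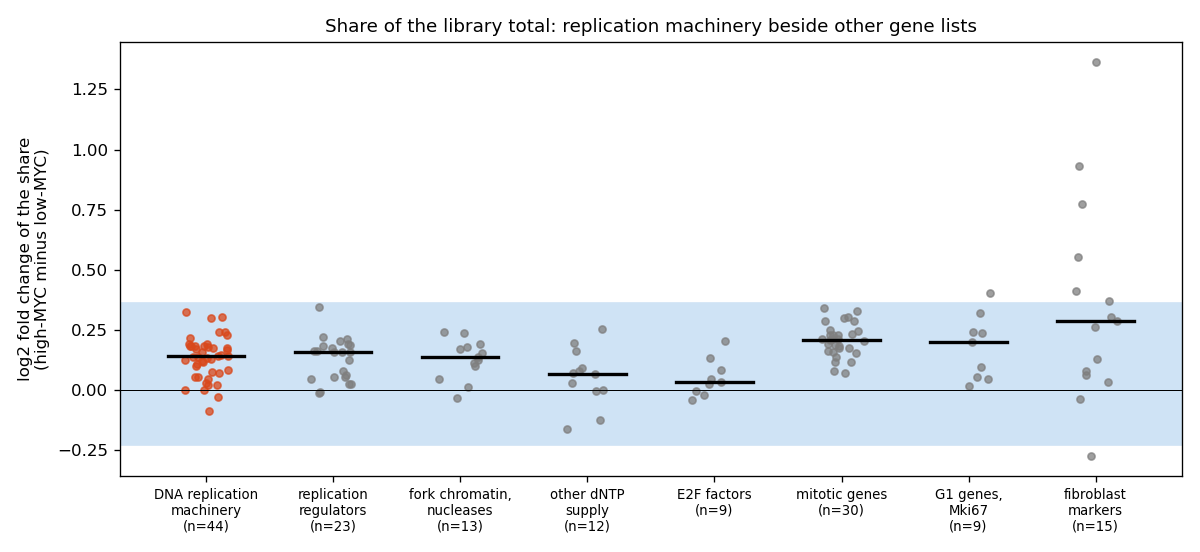
Log2 fold change of the share, high-MYC minus low-MYC, for each tested gene of the replication machinery (orange) and of 7 other lists (grey); bars are medians, and the blue band is the middle 90% of all genes tested. Medians are 0.14 for the replication machinery, 0.21 for mitotic genes and 0.03 for E2F factors.

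Markers of cell types also differed between the groups. All 15 fibroblast markers were tested and rose per cell at an adjusted p under 0.01 by limma, as did 97.1% of all genes tested. Together they held 0.890% and 0.868% of the low-MYC totals and 0.979% and 0.951% of the high-MYC totals. On the share scale 4 passed as higher, against 1.78% of all genes tested, with Lum at 1.37 and Postn lowest at -0.28. Of 20 macrophage markers, 19 were in the table and 11 were tested, and 10 of those 11 had a low-MYC mean under 0.1 and so passed the filter only through the high-MYC libraries, so their tests are not given. Without the filter, 18 of the 19 had both high-MYC libraries above both low-MYC libraries on the share scale. Over the genes tested, which all passed the filter, this held for 33.9%. It was not counted over all genes without the filter. The sum of the 19 was 14 and 18.5 ppm in low-MYC cells against 277 and 274 ppm in high-MYC cells. Of the 19, 18 had a low-MYC mean under 0.1 and 4 were at 0 in a low-MYC library. Of 16 markers of endothelial, epithelial, neural, muscle and blood cells, 9 were in the table and 3 were tested. Krt18, with a low-MYC mean of 0.0742, reached the filter only through the high-MYC libraries, so its test is not given. Tubb3 stood at 0.34 and Kdr at -0.31, and neither passed on the share scale by limma. The part of these cells, and of the share of cells in S phase, in the values of the replication genes was not tested. In bulk RNA, fewer cells that express a gene and less RNA per cell cannot be told apart.

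Myc, the gene by whose product the cells were sorted, read 9.81 and 9.86 normalized FPK in low-MYC cells and 20.3 and 20.5 in high-MYC cells, a ratio of 2.07. Its share was 212 and 204 against 197 and 188 ppm, a difference of -0.11 (-0.22 to -0.00; limma, Benjamini-Hochberg adjusted p = 0.154). The sort was on the protein, so this mRNA value does not check it.

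Chromatin at the start sites was described from a table of reads of TACh-seq, which sequences DNA freed by a nuclease from open chromatin of MEFs. The table lists 4881417 reads and has no column for the library. Its name points to a wild-type library, but the labels of all 4 TACh-seq samples refer to it. These samples came from wild-type cells and from Fubp1-knockout cells with Fubp2 knocked down by siRNA. The source of the reads is therefore uncertain and no comparison was made. Within 500 bases of the annotated start, 41 of the 44 members (93.2%) had a listed read, against 84.2% of 10260 protein-coding genes tested. The median was 108 reads for members and 106 for those genes. Gins2 had the most, 258, followed by Mcm4 with 216 and Cdc45 with 215. Rrm2 and Orc1 had 141 each, near Mcm3 with 132 and Mcm5 with 130. No read was listed at Pola1, Prim1 and Rfc2, and 1 at Lig1, whose transcripts start at several places. A count of 0 here says only that none was listed, since the table covers limited regions.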

How the data were processed

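The 44 members, the roles and the other gene lists were chosen with earlier results of these data known. RNA-seq reads had been trimmed at the 3′ end for quality, mapped by the authors with TopHat to mm10 transcripts and quantified by the Partek E/M algorithm, which splits reads shared by similar genes, so that paralogs and overlapping genes are less certain. They divided by transcript length and by the geometric mean of 10 ERCC transcripts. The deposited signal values are these normalized FPK, and depth per library is an estimate from single-transcript genes. Versions are not given in the sources used here. For TACh-seq, the deposited table gives a position and a mapping score per read, aligned by the authors to mm10 with Bowtie2. The scores were not used, only the positions. Peaks of FUBP1 were not used, since all lie on chromosome 15, which holds no member.

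The 4 libraries were compared with limma 3.58.1 (lmFit, eBayes with trend) in R 4.3.3, on log2(normalized FPK + 0.1) and on log2(share in ppm + 1), for the 11870 genes whose mean reached 0.1, with Benjamini-Hochberg adjustment over all of them. Calls were made at an adjusted p under 0.01. Fold changes are on these scales. Any member could be named. Values by library were given for the members with the largest and smallest share difference in each role, and for each other list the genes at its ends were named, with Myc. Further members were given library values after their values were seen. The procedure was tested on simulated data with known changes. On the share scale it called 0 of 50 genes changed 1.25-fold, 8 of 50 changed 1.5-fold and 19 of 50 changed 2-fold. Per cell it called 0, 6 and 25 of 50, and on neither scale any unchanged gene. In the simulation 11670 of 11870 genes were unchanged, so the adjustment was stricter than in the real per-cell fit, where 97.1% passed. The simulated spread was taken from normalized FPK on both scales. These counts therefore do not give the power of the fits used here. The largest share ratio of a member was 1.25 (Gins1). With 2 technical replicates a group, 0 calls among members on the share scale do not show equal shares. Gene positions are mm10 (GRCm38), 1-based, with ends from GENCODE, as the table's ends lie 1 base further for all 44 members. Alternatives covered pseudocounts, the filter, the trend, the replicate block, each library left out, the threshold and the scaling. Other steps ran in Python 3.11.15 (numpy 2.4.6, pandas 2.3.3, matplotlib 3.10.9, scipy 1.17.1).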

Additional observations from a re-analysis of the deposited data

How the results depend on the processing

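The per-cell rise held for every member tested under each alternative. The members' median log2 fold change per cell was 1.30 with a pseudocount of 0.01, 0.75 with 1 (10 members at least 2-fold) and 1.27 with a minimum mean of 1, where 27 members were tested and 27 were higher. The median share difference was 0.08 with a pseudocount of 10 ppm and 0.17 with a minimum mean of 1. At that minimum 25 of 27 members were positive and 1 passed, Rrm2 (limma, adjusted p = 0.00338). How many of all genes were positive at that minimum was not counted. With an adjusted p under 0.05 by limma, 7 passed as higher, as did 7.77% of all genes tested. Leaving out each library gave medians per cell of 1.14 to 1.20, share medians of 0.12 to 0.16 and 38 to 42 members positive in share. In the main fit, 53% of all genes tested were positive in share. The sign of the share difference turned for 8 members near 0, with ranges over the libraries left out of -0.068 to 0.0103 for Orc4, -0.00462 to 0.0473 for Orc5, -0.00472 to 0.109 for Orc6, -0.0147 to 0.0569 for Pold2, -0.00547 to 0.10 for Pold3, -0.0102 to 0.0695 for Prim1, -0.0478 to 0.0432 for Rpa3 and -0.0201 to 0.0177 for Rrm1. Same-numbered libraries share only a number (correlation of deviations 0.081 over 11870 genes), and the replicate block left 44 members higher per cell, 36 at least 2-fold, 0 on the share scale and medians of 1.17 and 0.14. Rescaling the libraries to the same median gave a share median of 0.13, with 40 positive and 0 passing as higher, where 1.76% of all genes tested passed. Within 1000 bases, 41 members (93.2%) had TACh-seq reads, against 84.7% of protein-coding genes tested. With 2 technical replicates a group, share differences as small as these can miss the threshold, and a miss does not show that a share was equal.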
